A study of Caenorhabditis elegans with 6 samples.

Results

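Potassium channel genes of Caenorhabditis elegans were followed in whole animals at the fourth larval stage (L4), comparing the unc-30(ok613) mutant with wild type. The genes were chosen by name: all genes of the twk, kvs, kqt, irk, slo, shk, shl and shw series, plus egl-36, exp-2, egl-2, unc-103, unc-58, sup-9 and egl-23. This gave 68 genes of the 46911 in each count table, all annotated as protein-coding. They comprise 47 tandem-pore channels (the twk genes with unc-58, sup-9 and egl-23), 11 voltage-gated Kv channels, 2 EAG or ERG channels, 3 KCNQ channels, 2 SLO channels and 3 inward rectifiers. Strain VC295, which carries unc-30(ok613) on chromosome IV, supplied 3 libraries and strain N2, the wild type, supplied another 3. Because the genotype field reads unc-30(ok613) in all 6 libraries, N2 included, groups follow the strain field. All animals hatched from eggs laid within 3 h by about 40 gravid adults and grew at 20 °C on E. coli OP50. The labels do not tie the libraries to separate cultures. The p-values therefore cover library-to-library spread, which may be technical.

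The homeodomain protein UNC-30 is the transcription factor that gives GABAergic D-type motor neurons their identity. Potassium channels let potassium leave the cell and so hold or restore a negative membrane potential. Tandem-pore channels carry a background leak and set the resting potential, voltage-gated channels repolarise an active cell, SLO channels open on calcium or other ions and voltage, and inward rectifiers conduct near rest. In C. elegans they act in neurons and in body wall, pharyngeal and egg-laying muscle, and several were found through mutants that move or lay eggs abnormally.

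Levels are CPM, counts scaled to a common library size, here after correction by trimmed mean of M-values (TMM) factors, which assume that most genes do not change. TMM gave factors of 0.654 to 0.760 for mutants but 1.38 to 1.49 for wild type, a difference that bears on every direction given here. Total counts ran from 20188810 to 24498576 in mutants and from 17318736 to 26377332 in wild type, and 3 counts corresponded to 0.175 to 0.227 CPM in mutants and 0.0765 to 0.123 CPM in wild type. On the first principal component of all tested genes, mutant replicate 1 (-31.9, against -96.7 and -98.3 in mutant replicates 2 and 3) and wild type replicate 2 (37.9, against 92.6 and 96.4 in wild type replicates 1 and 3) lay between the groups. The unc-30 gene itself had 20, 24 and 17 counts in mutant libraries 1 to 3, and 23, 26 and 17 in wild type. On the TMM scale its level was 1.29, 1.40 and 1.29 CPM in mutants, and 0.586, 1.07 and 0.533 CPM in wild type, without overlap. Its log2 fold change (mutant over wild type) was 0.88 and did not pass the test described below, and by total counts it was -0.13. Counting covered the entire gene, and how much of it ok613 removes is not known here, so these values do not check the labels. All 85 matched marker genes of 8 tissues and cell types had counts. In bulk samples, fewer cells of a type and less RNA per cell cannot be told apart.

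Potassium channel transcripts were scarce. The 68 genes together had 2994, 4136 and 3039 counts in mutant libraries 1 to 3, and 9133, 6120 and 8079 in wild type. As a share of all counts this was 0.0146% to 0.0169% in mutants and 0.0346% to 0.0353% in wild type. Ribosomal RNA genes held 9.08%, 7.65% and 12.7% of counts in mutants, and 3.84%, 0.394% and 8.2% in wild type. Genes with a count numbered 17088 to 17525 in mutants and 18373 to 19477 in wild type, without overlap. The part of these library differences in the channel results was not tested. On the TMM scale the summed level was 193, 242 and 230 CPM in mutants and 233, 252 and 253 CPM in wild type, so the groups overlap on this scale and do not on the unscaled one. Tandem-pore genes held 54%, 51.1% and 52% of the channel counts in mutants, and 62.4%, 54% and 63.6% in wild type. This share does not depend on the scaling, and wild type replicate 2 stood with the mutant libraries in it.

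Between genes, levels were compared as TMM-scaled CPM per kb of exonic length. twk-5 and twk-18 stood at the top in both genotypes. The level of twk-5 was 10.5 ± 1.22 CPM per kb in mutants and 8.87 ± 3.93 CPM per kb in wild type (± SD, 3 libraries each). twk-18, a channel of body wall muscle whose overactive alleles paralyse the animal, had 6.86 ± 0.818 CPM per kb in mutants and 10.3 ± 1.85 CPM per kb in wild type. Both genes thus exchanged first place between the genotypes, but in wild type their ranges overlap (8.55 to 12.2 for twk-18 and 5.09 to 12.9 for twk-5). The Kv channel gene kvs-5 came next in both, at 5.52 ± 1.22 CPM per kb in mutants and 6.07 ± 1.64 CPM per kb in wild type. Below it in mutants, twk-42, slo-1, shk-1 and twk-49 lay at 4.17 to 5.17 CPM per kb with SDs of 0.976 to 1.47, so their order is not resolved. In wild type the places after kvs-5 went to twk-8 (4.47 CPM per kb), kqt-2 (4.20), twk-1 (4.07) and twk-34 (4.04), also within their spread.

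Some genes stood at a very different height in the 2 genotypes. twk-8 was number 27 of 68 in mutants and number 4 in wild type, and sup-9 was number 9 in mutants and number 32 in wild type. Over all 68 genes the Spearman correlation of the per-kb levels between the genotypes was 0.832, a description over genes that share the same 6 libraries. Under 1 CPM per kb in both genotypes were 30 of the 68 genes.

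**Figure D1:**
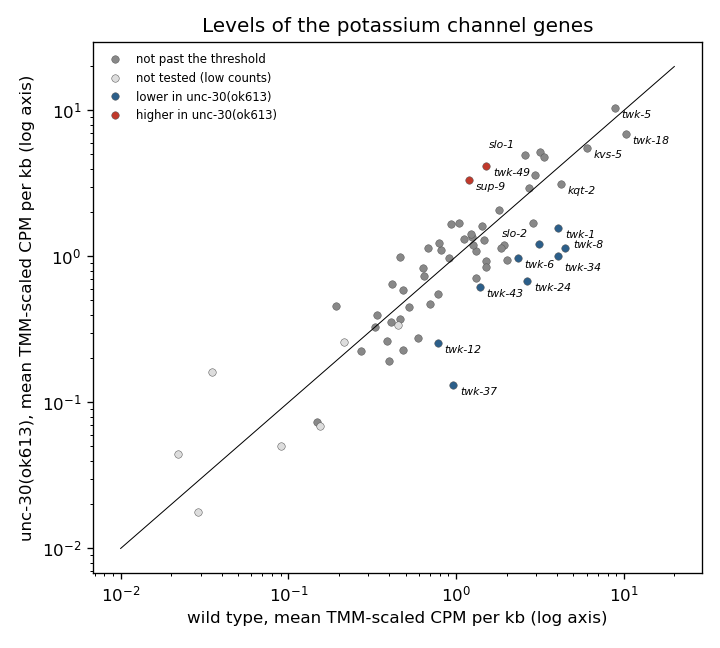
Mean level of each potassium channel gene in TMM-scaled CPM per kb of exonic length, unc-30(ok613) on the vertical and wild type on the horizontal log axis, with a line of equal level; twk-47, with 0 counts in mutants, is not drawn. Most genes lie near the line, twk-49 and sup-9 above it, and twk-37 farthest below it among the genes that passed the test.

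The expression filter kept 60 of the 68 genes for the test, which was the quasi-likelihood F-test of edgeR fitted over all 14506 tested genes, and a gene passed at a Benjamini-Hochberg adjusted p below 0.05. Adjusted p-values below are from this test unless another is named. Of the 60, 2 were higher in mutants, where the share among all tested genes was 17.1%, and 9 were lower, where that share was 20.9%. The genes that passed thus made up 3.33% and 15% of the 60, both below the shares over all genes. Channel genes had few counts, and a change is harder to detect at low counts. The part of this in the 2 shares was not tested. The median log2 fold change (mutant over wild type) of the 60 was -0.20 with quartiles of -0.85 and 0.29, and that of all tested genes was -0.095 with quartiles of -0.95 and 0.65. Groups that did not overlap were found for 7 channel genes with the mutant higher (11.7%, against 24.4% of all tested genes) and for 21 with the mutant lower (35%, against 28.2%).

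Both scaling and gene length bear on these counts. With scaling by total counts alone, 0 of the 60 were higher (3.44% of all tested genes) and 33 were lower (55%, against 56.3% of all tested genes), while the median of all tested genes moved by -1.01. With the trend on exonic length removed from each library, 8 were higher (19.4% of all tested genes) and 6 were lower (18.2% of all). Longer genes were lower in mutants across the transcriptome: the median log2 fold change was 0.25 for the 4496 shortest (under 1000 exonic bases) and -0.69 for the 750 longest. Tested channel genes are long, with a median of 2111 exonic bases against 1366 for all tested genes, yet the 6 of them in the class of those 750 had a median of 0.061. Log2 fold changes also rose with mean level over all tested genes (Spearman correlation 0.275), and less so over the 60 channel genes (0.106). The part of mean level in the channel results was not tested.

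**Figure D2:**
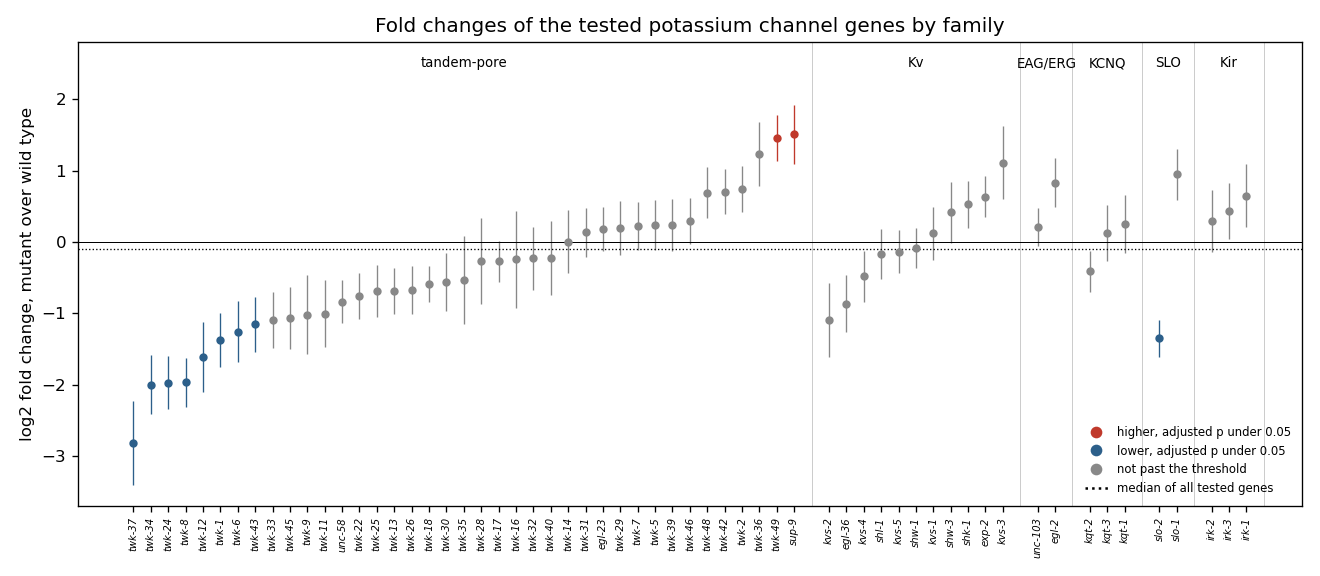
Log2 fold change (mutant over wild type) with its standard error for the 60 tested potassium channel genes, ordered within each family; the dotted line is the median of all tested genes. Of the 39 tandem-pore genes 10 are past the threshold, with a share lower (20.5%) near the 20.9% of all tested genes, and of the other 21 genes only slo-2 is.

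Among the tandem-pore channels 8 genes fell, 2 rose and 29 did not pass, of 39 tested. The share that fell was 20.5%, beside 20.9% of all tested genes, and the share that rose was 5.13%, beside 17.1%. The family's median log2 fold change was -0.54 on the TMM scale, -0.21 with the length trend removed, and -1.55 by total counts, where 24 fell and 0 rose. Those 24 were 61.5% of the tested tandem-pore genes, beside 56.3% of all tested genes. twk-37 (chromosome I, 6269420 to 6271533, minus strand, WBcel235) had 0.193, 0.175 and 0.151 CPM in mutant libraries 1 to 3, and 0.892, 0.823 and 2.07 CPM in wild type. It had the largest fold of the group, 7.07-fold lower (log2 fold change -2.82 ± 0.59, SE; adjusted p = 0.00784), but rests on 8 counts over the mutant libraries against 121 over wild type. All mutant values lay below all wild-type values, as they did for each of the 9 genes that fell.

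Next came 3 genes at very similar folds. twk-34 (chromosome V, 15704960 to 15709592) had 3.15, 2.22 and 1.21 CPM in mutants, and 7.04, 7.57 and 12 CPM in wild type (4.01-fold lower, adjusted p = 0.00757). twk-24 (chromosome V, 12265707 to 12269322) had 1.29, 1.11 and 1.51 CPM in mutants, against 5.51, 3.37 and 6.49 CPM in wild type (3.94-fold lower, adjusted p = 0.00555). twk-8 (chromosome IV, 9082355 to 9087579) had 3.73, 1.93 and 3.10 CPM in mutants, and 10.5, 9.50 and 14.2 CPM in wild type (3.91-fold lower, adjusted p = 0.00445). These 3, twk-37 and slo-2 (below) were the genes called lower in every one of the 16 fits, the alternatives included.

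The other 4 falls were smaller or less stable. twk-12 (chromosome V, 10667584 to 10670890) had 0.708, 0.351 and 0.606 CPM in mutants, and 2.58, 1.27 and 1.22 CPM in wild type, where replicate 1 was about as high as the others together (log2 fold change -1.62 ± 0.49, adjusted p = 0.0324). twk-1 (chromosome I, 7269119 to 7273008) had 3.15, 2.87 and 1.74 CPM in mutants, and 7.57, 4.28 and 8.43 CPM in wild type (-1.38 ± 0.38, adjusted p = 0.0222). twk-6 (chromosome III, 4742920 to 4744719) had 0.708, 1.11 and 1.59 CPM in mutants, and 2.01, 2.51 and 3.60 CPM in wild type (-1.26 ± 0.43, adjusted p = 0.0473). In twk-43 (chromosome V, 13346278 to 13356168) the values were 1.42, 0.819 and 1.59 CPM in mutants, and 2.29, 2.8 and 3.42 CPM in wild type (-1.16 ± 0.39, adjusted p = 0.0446). Wild type replicate 2 was the lowest wild-type library for twk-1, and mutant replicate 1 the lowest mutant library for twk-6. These calls did not hold in every fit that left out a single library. twk-43 was lost without any one of the 6 libraries (adjusted p = 0.0529 to 0.197). twk-6 was lost without any but wild type replicate 1 (up to 0.152), and twk-1 without any but mutant replicate 1 or wild type replicate 2 (up to 0.0988). twk-12 was lost when mutant replicate 2 or 3, or replicate 1 of wild type, was left out (up to 0.138). Fewer genes were called in some of these fits over the whole transcriptome. The share of all tested genes called lower was 9.57% and 9.5% without mutant replicate 2 or 3. It was 17.5% and 12.9% without wild type replicate 1 or 3, and 21% and 21.8% without mutant replicate 1 or wild type replicate 2. With the length trend removed twk-12, twk-6 and twk-43 did not pass (adjusted p = 0.0584, 0.0505 and 0.0975). The exons of twk-43 share 86 bases with F32H5.1 on the other strand, a gene of 34 ± 7.03 CPM in mutants and 16.8 ± 2.65 CPM in wild type (± SD, 3 libraries each), and whether counting used strand is not known here.

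The 2 genes that rose were sup-9 and twk-49. sup-9 (chromosome II, 2684669 to 2687027, minus strand) encodes a channel of muscle that works with the proteins UNC-93 and SUP-10, and its overactive alleles give a flaccid, rubber-band response to touch. Its level was 2.89, 4.38 and 4.01 CPM in mutants, and 0.969, 2.06 and 0.971 CPM in wild type, so wild type replicate 2 was nearest to the mutant. It was 2.85-fold higher in mutants (log2 fold change 1.51 ± 0.42, adjusted p = 0.0226). The call of sup-9 was lost when mutant replicate 2 or 3, or replicate 1 or 3 of wild type, was left out (adjusted p up to 0.0807). twk-49 (chromosome II, 6492785 to 6499167, minus strand) had 7.20, 8.30 and 12.3 CPM in mutants, and 2.65, 3.78 and 3.63 CPM in wild type (2.76-fold higher, log2 fold change 1.46 ± 0.32, adjusted p = 0.00961), and kept its call without each of the 6 libraries. Its exons share 608 bases with T28D9.1 on the other strand, which had 0.528 ± 0.204 CPM in mutants and 0.370 ± 0.227 CPM in wild type (± SD, 3 libraries each), far below twk-49. Neither rise passed with scaling by total counts, where the log2 fold changes of sup-9 and twk-49 were 0.49 and 0.44 (adjusted p = 0.310 and 0.216).

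**Figure D3:**
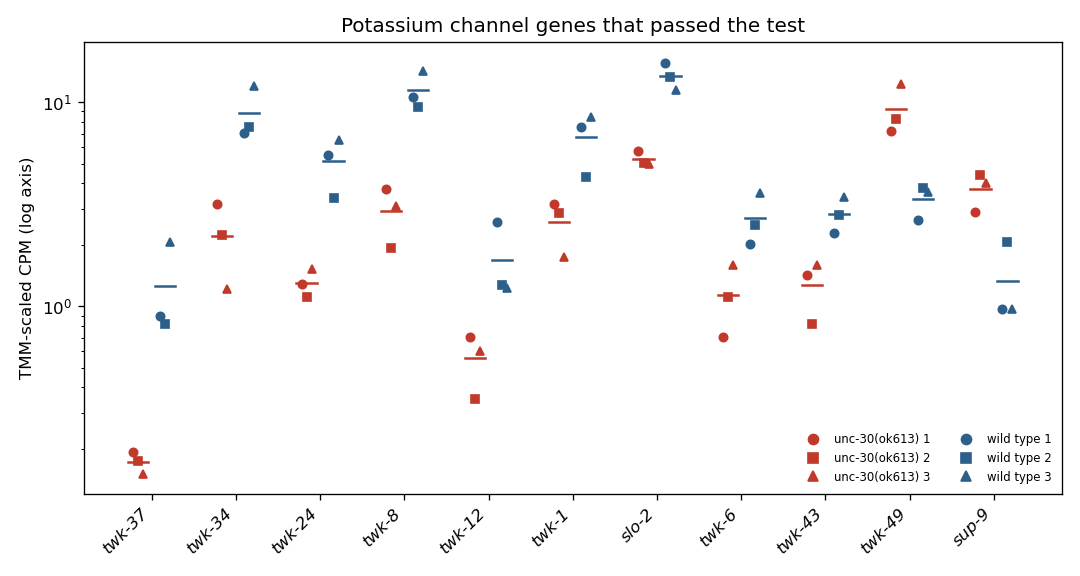
TMM-scaled CPM (log axis) of the 11 potassium channel genes past the threshold in each library, unc-30(ok613) left of wild type, with symbols for replicates 1 to 3 and bars for means. The groups are apart for each gene; the gap is narrowest in twk-6, between 1.59 CPM in mutant replicate 3 and 2.01 CPM in wild type replicate 1.

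The well-studied tandem-pore channel genes unc-58, twk-18 and egl-23 did not pass. unc-58, whose dominant alleles disturb movement, had 2.51, 4.15 and 3.41 CPM in mutants, and 6.07, 6.25 and 5.73 CPM in wild type. The groups did not overlap, and the log2 fold change of -0.84 ± 0.30 narrowly missed the threshold (adjusted p = 0.0552). It was -0.21 with the length trend removed, at 3985 exonic bases. For twk-18 the mutant had 11.6, 14.8 and 13.6 CPM and wild type 23.8, 16.7 and 19.6 CPM, again without overlap (-0.59 ± 0.25, adjusted p = 0.0949). egl-23, a channel whose overactive alleles block egg laying, overlapped between the groups, with 2.77, 4.62 and 4.01 CPM in mutants and 3.37, 3.13 and 3.54 CPM in wild type (0.18 ± 0.31, adjusted p = 0.664). twk-5 was variable in wild type, with 10.3, 11.8 and 9.39 CPM in mutants and 8.62, 5.10 and 13 CPM in wild type (0.24 ± 0.36, adjusted p = 0.619). With scaling by total counts unc-58, twk-18 and egl-23 passed as lower (adjusted p = 0.00140, 0.00172 and 0.0374).

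Markers of several tissues also moved with the genotype on the TMM scale. Among all tested genes 17.1% rose and 20.9% fell on that scale, and 3.44% rose and 56.3% fell by total counts. Of 15 listed muscle genes 11 rose and 2 fell (unc-22 and ttn-1), and their summed level was 24250 to 34700 CPM in mutants and 9063 to 15120 CPM in wild type. With scaling by total counts 1 of the 15 rose and 4 fell. With the length trend removed the falls of unc-22 and ttn-1 did not pass (adjusted p = 0.775 and 0.462), while the 11 rises did. Of 20 pan-neuronal genes 3 rose and 4 fell, with a summed level of 863 to 1079 CPM in mutants and 475 to 556 CPM in wild type. The 3 that rose, snb-1, egl-3 and egl-21, gave the largest parts of that sum in both genotypes, and the log2 fold changes of the 20 had a median of -0.36. By total counts 2 of the 20 rose and 14 fell. With the length trend removed the neuronal falls of snt-1 and unc-13 did not pass (adjusted p = 0.111 and 0.0550). Those of unc-104 and maco-1 did (adjusted p = 0.0342 and 0.0204). Intestinal markers summed to 7517 to 11520 CPM in mutants and 2176 to 3942 CPM in wild type (4 of 7 rose), and epidermal ones to 6581 to 14260 CPM in mutants and 563 to 5094 CPM in wild type (2 of 8 rose and 1 fell). The largest part of the intestinal sum was asp-1 (6518 CPM in mutants, 1674 CPM in wild type), and elt-2 was at -0.29 (adjusted p = 0.393). The largest parts of the epidermal sum, sqt-3 and dpy-13, did not pass (adjusted p = 0.0657 and 0.0800). In wild type sqt-3 had 169, 1791 and 196 CPM. lin-26 was at 0.015 (adjusted p = 0.970), and elt-1 was the gene that fell. Of 10 sperm genes 0 rose and 4 fell, with sums of 287 to 433 CPM in mutants and 315 to 543 CPM in wild type, and of 10 germline genes 0 rose and 2 fell, with sums of 2236 to 5403 CPM in mutants and 2156 to 3798 CPM in wild type. Replicate 1 was the highest library of each group for the germline genes cpg-1 and cpg-2. For cpg-2 the values were 1641, 339.6 and 348.5 CPM in mutants, and 935, 379.5 and 334.3 CPM in wild type. glh-1 was more even, at 745, 714 and 699 CPM in mutants, and 611, 830 and 598 CPM in wild type. Of 6 pharyngeal muscle genes 2 rose and 1 fell (sums of 368 to 592 CPM in mutants and 282 to 334 CPM in wild type), and of 9 D-type neuron genes 2 rose and 2 fell (sums of 81.2 to 124 CPM in mutants and 35.5 to 46.8 CPM in wild type). The neuropeptide genes flp-11 (64 CPM in mutants, against 12.2 CPM in wild type) and flp-13 (24.6 CPM in mutants, against 4.36 CPM in wild type) rose, unc-25 and ttr-39 fell, and the median of the 9 was -0.37. By total counts 2 of the 9 rose and 6 fell, and of the intestinal, epidermal, sperm, germline and pharyngeal genes 1, 0, 0, 0 and 0 rose and 1, 2, 9, 5 and 3 fell. The part of these tissues in the channel results was not tested.

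Of the 2 SLO channel genes slo-2 fell and slo-1 did not pass. slo-2 (chromosome X, 11394605 to 11405931, minus strand) encodes a high-conductance channel opened by intracellular ions that shapes motor neuron activity. Its level was 5.79, 5.03 and 5.0 CPM in mutants, and 15.6, 13.2 and 11.5 CPM in wild type. Every mutant library was below every wild-type library, by 2.55-fold in the fit (log2 fold change -1.35 ± 0.26, adjusted p = 0.00609). The log2 fold change was -0.73 with the length trend removed (adjusted p = 0.0427), and by total counts -2.36 (adjusted p = 0.000948).

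slo-1 (chromosome V, 18492261 to 18508212, plus strand) encodes the calcium-activated BK channel that limits transmitter release at synapses and is a target of ethanol. It had 15.2, 21.9 and 22 CPM in mutants, and 7.32, 15.8 and 7.58 CPM in wild type. The groups overlap through wild type replicate 2, which was above mutant replicate 1. The log2 fold change of 0.95 ± 0.36 did not pass (adjusted p = 0.0658), but it did with the length trend removed (1.58, adjusted p = 0.0138) and without wild type replicate 2 (1.41, adjusted p = 0.00819). Scaled by total counts it was -0.071. DESeq2 and limma-voom also called slo-1 higher.

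The ratio of the SLO genes within a library is free of any scaling between libraries. It was 0.380, 0.229 and 0.228 counts of slo-2 per count of slo-1 in mutant libraries 1 to 3, and 2.13, 0.841 and 1.52 in wild type. The geometric means differed 5.15-fold and the groups did not overlap (two-sided exact permutation p = 0.10, the smallest that 3 against 3 libraries allow). slo-2 and slo-1 have 4313 and 3964 exonic bases, so they are close in length.

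sup-9 was set against its partners in the same way. UNC-93 and SUP-10 are regulatory subunits of the SUP-9 channel. The number of sup-9 counts per unc-93 count was 0.900, 1.21 and 1.47 in mutants, and 0.369, 0.495 and 0.323 in wild type, a 3.01-fold difference of geometric means. Per sup-10 count the values were 2.25, 2.5 and 2.30 in mutants, and 0.623, 0.909 and 0.517 in wild type, a 3.54-fold difference. sup-9 has 1120 exonic bases, sup-10 1291 and unc-93 2165, so the ratio to unc-93 is not free of the length trend. With that trend removed the log2 fold changes of sup-9, sup-10 and unc-93 were 1.54, -0.14 and 0.28. The groups did not overlap in either ratio (exact permutation p = 0.10 for each, the smallest possible; the 3 ratios were picked with the values known). unc-93 and sup-10 themselves had log2 fold changes of -0.027 and -0.25 and did not pass (adjusted p = 0.955 and 0.601), nor did sup-18, which encodes an activator of the channel, at -0.50 (adjusted p = 0.377).

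**Figure D4:**
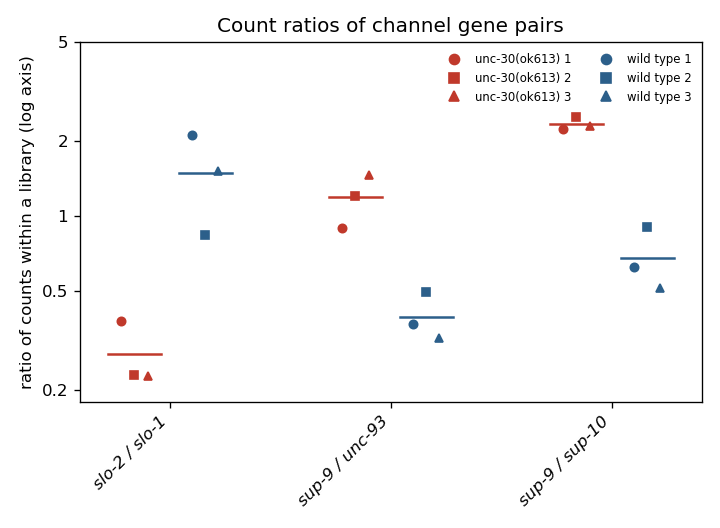
Ratio of counts within each library (log axis) for slo-2 over slo-1, sup-9 over unc-93 and sup-9 over sup-10, unc-30(ok613) left of wild type, with bars at arithmetic means. The mutant ratios of slo-2 to slo-1 (0.228 to 0.380) lie below the wild-type ones (0.841 to 2.13), and both sup-9 ratios lie above theirs.

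None of the 11 voltage-gated Kv genes passed, with log2 fold changes from -1.10 (kvs-2) to 1.11 (kvs-3) and adjusted p of 0.110 or more. The shk-1 gene, a Shaker-type channel of neurons and muscle, had 6.69, 11.9 and 12 CPM in mutants, and 5.33, 7.28 and 8.55 CPM in wild type. Mutant replicate 1 lay within the wild-type range (0.53 ± 0.33, adjusted p = 0.229). shl-1, a Shal-type channel gene, had 1.99, 4.15 and 2.8 CPM in mutants, and 3.16, 3.74 and 3.20 CPM in wild type, and the groups overlap (-0.17 ± 0.35, adjusted p = 0.725). egl-36, a Shaw-type channel of the egg-laying muscles, had 1.80, 1.17 and 0.985 CPM in mutants, and 2.37, 1.77 and 3.10 CPM in wild type, where replicate 2 lay just below the highest mutant value (-0.87 ± 0.40, adjusted p = 0.116). exp-2, which repolarises pharyngeal muscle, was higher in each mutant library, at 5.34, 5.85 and 7.12 CPM, than in wild type, at 4.0, 4.48 and 3.29 CPM (0.64 ± 0.29, adjusted p = 0.110). It passed as higher with the length trend removed (1.30, adjusted p = 0.0110). kvs-5, the most abundant Kv gene per kb, had 13, 14.6 and 9.31 CPM in mutants, and 10.9, 17.7 and 11.9 CPM in wild type (-0.13 ± 0.30, adjusted p = 0.744). With scaling by total counts 6 Kv genes passed as lower, egl-36, shl-1 and kvs-5 among them. That was 54.55% of the tested Kv genes, beside 56.3% of all tested genes.

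The EAG and ERG channels, which share a domain related to cyclic nucleotide binding, both had fitted values above 0. egl-2, the EAG gene, had 5.15, 6.02 and 5.45 CPM in mutants, and 2.40, 4.52 and 2.44 CPM in wild type. The groups were apart, with wild type replicate 2 again nearest to the mutant (0.83 ± 0.34, adjusted p = 0.0866). unc-103, the ERG gene, which restrains egg-laying and male mating muscles, had 8.55, 9.12 and 12.2 CPM in mutants, and 8.64, 9.46 and 7.77 CPM in wild type (0.21 ± 0.26, adjusted p = 0.558). With the length trend removed both passed as higher, egl-2 at 1.38 and unc-103 at 0.86 (adjusted p = 0.0170 and 0.0415). Under total-count scaling the signs turned, to -0.18 for egl-2 and -0.82 for unc-103, and unc-103 passed as lower there (adjusted p = 0.0220).

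KCNQ genes encode slowly opening channels that damp firing, and none of the 3 passed. kqt-2, the most abundant per kb, had 5.53, 8.24 and 8.03 CPM in mutants, and 7.67, 9.87 and 11.5 CPM in wild type (-0.41 ± 0.29, adjusted p = 0.287). kqt-1 had 0.900, 1.29 and 1.06 CPM in mutants, and 0.892, 1.19 and 0.658 CPM in wild type, with overlapping groups (0.25 ± 0.41, adjusted p = 0.644). The inward rectifier genes irk-1, irk-2 and irk-3 had log2 fold changes of 0.65, 0.29 and 0.44 and did not pass either. irk-3, the highest of them per kb, had 1.54, 3.10 and 1.89 CPM in mutants, and 1.35, 1.93 and 1.57 CPM in wild type (0.44 ± 0.39, adjusted p = 0.398).

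**Figure D5:**
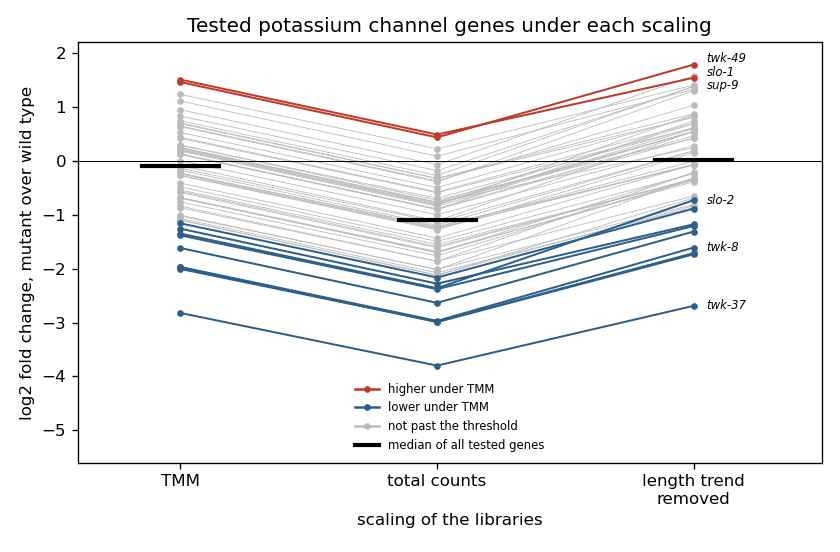
Log2 fold change (mutant over wild type) of the 60 tested potassium channel genes with TMM scaling, with scaling by total counts and with the exonic length trend removed; black bars are medians of all tested genes. Total-count scaling shifts the genes and the median of all genes down together, and removing the length trend raises slo-1 to 1.58 and slo-2 to -0.73.

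Among the 49 tested genes that did not pass, log2 fold changes ran from -1.10 to 1.23 and the smallest adjusted p was 0.0543 (twk-33). In 12 of them the mutant values all lay below the wild-type values, and in 5 they all lay above. twk-36, twk-2 and twk-48 were among those 5, at 1.23, 0.74 and 0.69 (adjusted p = 0.0571, 0.104 and 0.159), beside exp-2 and egl-2. With the genes that passed included, lower groups without overlap made up 35% of the tested channel genes and 28.2% of all tested genes. For higher groups without overlap these shares were 11.7% and 24.4%. On the X chromosome, which holds 19 of the 68 genes, 15 were tested, 0 were higher and slo-2 alone was lower; among all 2032 tested X-linked genes 18.7% were higher and 13.9% lower. Chromosome V holds 20 of the 68, 19 of them tested, and 4 of these fell (twk-12, twk-24, twk-34 and twk-43), a share near the 20.9% of all tested genes that did. Of the 9 falling genes the median number of annotated transcripts was 1, against 2 for the tested genes that did not pass, and the median exonic lengths were 2050 and 2116 bases.

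The filter removed 8 genes, all tandem-pore channels: twk-3, twk-4, twk-10, twk-20, twk-21, twk-23, twk-44 and twk-47. twk-47 had 0 counts in every mutant library, and 6, 2 and 6 counts in wild type. Its scaled ratio of mutant over wild type had an exact 95% upper limit of 0.628. twk-21 had 5 counts over the mutant and 29 over wild type, a scaled ratio of 0.359 (exact 95% interval 0.109 to 0.938, counting error only), and all 5 mutant counts came from replicate 3. twk-23 had 13 counts over the mutant and 7 over wild type (ratio 3.87, interval 1.43 to 11.4, counting error only). By library these were 5, 2 and 6 counts in mutants and 6, 1 and 0 in wild type, and the scaled groups overlap. For the other 5 the interval included 1. Most of the exons of twk-4 overlap sym-2 on the same strand (2375 shared bases), so its 3 mutant and 8 wild-type counts are uncertain.

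Other potassium channels and channel accessory genes outside the name rule formed a list of 18, of which 15 were tested, 1 rose, 1 fell and 13 did not pass (median log2 fold change -0.027). By total counts 0 rose and 7 fell, where 3.44% of all tested genes rose and 56.3% fell. On the TMM scale the shares of all tested genes were 17.1% and 20.9%. kcnl-1, a calcium-activated channel of the small-conductance type, rose, at 9.26, 13.9 and 15.9 CPM in mutants against 4.26, 5.10 and 3.35 CPM in wild type (log2 fold change 1.62 ± 0.31, adjusted p = 0.00629), but not with scaling by total counts (0.58, adjusted p = 0.116). islo-1, an adaptor that ties SLO-1 to the dystrophin complex in muscle, fell, at 2.32, 1.81 and 1.44 CPM in mutants against 4.03, 3.46 and 5.14 CPM in wild type (-1.18 ± 0.34, adjusted p = 0.0265). Other partners of SLO-1 did not pass. bkip-1 (an auxiliary subunit) was at 1.10 and ctn-1 (alpha-catulin) at 1.04 (adjusted p = 0.0879 and 0.0655). erg-28 (which aids SLO-1 export from the endoplasmic reticulum) was at 0.11 and the dystrophin gene dys-1 at -0.57 (adjusted p = 0.841 and 0.0639). With the length trend removed only ctn-1 of these 4 passed, as higher (1.59, adjusted p = 0.0194). By total counts bkip-1 and ctn-1 were at 0.070 and 0.016, and dys-1 passed as lower (-1.58, adjusted p = 0.00112). mps-2 and mps-4, of a family of small auxiliary subunits, had 0 counts in all libraries.

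Genes for other ion channels and the sodium pump, a list of 22 with 20 tested, gave 2 rises and 6 falls, with a median of -0.38, where 17.1% of all tested genes rose and 20.9% fell. By total counts 0 rose and 15 fell, with a median of -1.38, where 3.44% of all tested genes rose and 56.3% fell. Both rises belonged to the sodium/potassium pump, which builds the potassium gradient: the alpha subunit gene eat-6 rose 1.61-fold, to 1139, 989 and 1296 CPM in mutants against 622, 783 and 720 CPM in wild type (adjusted p = 0.0230), and the beta subunit gene nkb-1 rose 2.23-fold (adjusted p = 0.00416). Another beta subunit gene, nkb-2, fell 8.31-fold, to 2.19, 1.75 and 2.27 CPM in mutants against 15.4, 10.6 and 25.6 CPM in wild type (adjusted p = 0.00242). The remaining falls were those of the sodium leak channel gene nca-2 (5.31-fold) and its partner unc-80 (2.42-fold), the calcium channel genes unc-36 (an auxiliary subunit, 3.07-fold) and cca-1 (a T-type pore subunit, 2.5-fold), and the chloride channel gene clh-3 (2.02-fold, adjusted p = 0.0437). With scaling by total counts the rises of eat-6 and nkb-1 did not pass (-0.33 and 0.13, adjusted p = 0.106 and 0.551). The falls of unc-80, cca-1 and clh-3 were lost once the length trend was taken out (adjusted p = 0.180, 0.099 and 0.225). Their exonic lengths are 10255, 6419 and 3956 bases. Falls of nkb-2, nca-2 and unc-36 still passed in that fit (adjusted p = 0.00205, 0.0264 and 0.0158), as did both rises.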

How the data were processed

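Each library has 1 deposited table of raw gene counts by WormBase identifier. Per the submitters' processing notes the authors used HTSeq and DESeq2. The sources used here do not give the aligner, build, annotation, strand setting or versions. Names, exonic lengths (merged exons) and coordinates (1-based) come from Ensembl release 115 of WBcel235; 46863 of 46911 identifiers matched. Reads that overlapping genes or close paralogs share cannot be assigned with certainty, and 35 of the 68 channel genes share exonic bases with another gene.

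Counts were tested with edgeR 4.0.16 (R 4.3.3): TMM, default expression filter, robust quasi-likelihood fit, group as the only term. Standard errors were derived from the F statistic. Alternatives were another scaling, no filter, DESeq2 1.42.0, limma-voom (limma 3.58.1), a replicate block, removal of a lowess trend (span 0.3) on exonic length, and leaving out libraries. Replicates were separate libraries by a chi-square test of their counts (statistic over degrees of freedom 31.9 to 255). The fit was tested on simulated data with known changes. Intervals and floors cover counting error only.

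Genes described by library are those called, the most abundant per kb of each family, and a fixed set of well-studied members; genes such as twk-36 outside this rule were chosen after their values were seen. The channel genes, the other lists and the tests were chosen with earlier results of these data known. The listed genes nca-1 and opt-2 had no match.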

Additional observations from a re-analysis of the deposited data

How the results depend on the processing

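Of the 60 tested channel genes, 2 were higher and 9 lower, with a median log2 fold change of -0.20. The number higher was 0 with scaling by total counts, 4 with a replicate block, 8 with the length trend removed, 11 with a replicate block and the length trend removed, and 7 without mutant replicate 1 and wild type replicate 2 together; it was 1 to 5 when single libraries were left out. The number lower was 33 with scaling by total counts and 5 to 9 when single libraries were left out. The number lower stayed within 1.5 times under the other settings. Without single libraries 9.0% to 19.4% of all tested genes were higher and 9.5% to 21.8% were lower. The median was -1.20 with scaling by total counts, -0.10 with limma-voom, 0.17 with the length trend removed and also with the replicate block added to that, 0.020 without mutant replicate 1 and wild type replicate 2, and -0.22 to -0.039 without single libraries. Of the 2 lists of related genes, with 15 and 20 genes tested, 10 were called. With scaling by total counts 22 were called, and without single libraries 5 to 11. In the main fit 17.1% of all tested genes were higher and 20.9% lower. With a replicate block 22.3% were higher and 25.6% lower, and with the length trend also removed 25.03% and 22.84%. Without mutant replicate 1 and wild type replicate 2 together these shares were 23.7% and 26.58%. The channel shares higher under these settings were 6.67%, 18.33% and 11.48%, each below that of all tested genes. Shares with scaling by total counts and with only the length trend removed are given above.

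Same-numbered replicates of the groups deviated together for numbers 1 and 2 (r = 0.451 and 0.419 across genes) but not for number 3 (-0.068). Mutant replicate 3 correlated best with wild type replicate 2 (0.31). The pairing by number was therefore not used. Under the replicate block the 11 calls were kept and 4 were added (egl-2, slo-1, twk-33 and unc-58). Calls among all tested genes also rose there, from 17.1% to 22.3% higher and from 20.9% to 25.6% lower.

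Turns of sign in single genes were followed only for the genes described by library, and other channel genes turned too. Log2 fold changes below 0 made up 55% of the 60 on the TMM scale and 93.3% by total counts. Among all tested genes these shares were 53.3% and 85.1%. With scaling by total counts the sign turned for egl-2 (-0.18), egl-23 (-0.84), exp-2 (-0.39), irk-3 (-0.58), kqt-1 (-0.76), shk-1 (-0.50), slo-1 (-0.071), twk-5 (-0.77) and unc-103 (-0.82). kvs-5 turned to 0.19 with the length trend removed, 0.19 with the block added, 0.09 without mutant replicate 3, 0.11 without wild type replicate 2 and 0.11 without both libraries between the groups. shl-1 turned to 0.18 with the length trend removed, 0.11 with the block added, 0.12 without mutant replicate 1 and 0.17 without both libraries, and twk-5 to -0.032 without wild type replicate 2. Over single libraries left out, kvs-5 ran from -0.27 to 0.11, shl-1 from -0.42 to 0.12 and twk-5 from -0.032 to 0.61. None of these turning genes had passed the test, and the cause was not tested. The called genes rest on 8 to 416 counts over the mutant libraries, which limits the precision of the lowest.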
